A study of Mus musculus with 23 samples.

Results

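The genes described here are the receptor, kinases, transcription factors and direct target genes of interleukin-6 signalling. They are Il6ra, Il6st, Jak1, Jak2, Stat3, Stat5b, Socs1, Socs3, Cish and Pim1, and they were taken by symbol from tables that list 24063 genes. All 10 were listed, and all 10 passed the filter on low counts in both fits used.

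Libraries of 6 groups of mouse cells sorted as CD138+B220-, the surface phenotype of plasma cells, were compared. The VQ lines, numbered VQ-D1, VQ-D2, VQ-D4 and, as the last, VQ-D5, carry Vκ*MYC, a MYC transgene under regulatory elements of the immunoglobulin kappa locus, together with NrasLSL Q61R/+, an oncogenic Nras allele switched on by IgG1-Cre, a recombinase expressed from the IgG1 locus. The line t-VK12653 carries Vκ*MYC, and its label names neither the Nras allele nor Cre. Control carries IgG1-Cre alone, which the VQ lines share. The cell type label calls control cells myeloma cells too, although their genotype holds no MYC transgene. Each line is 1 donor passed into recipient mice, with 4 libraries, and control has 3 libraries. Some libraries share a recipient mouse, and the fit of all 23 libraries takes them as independent. Since a line's libraries share a donor, p-values of single lines carry nothing on how much donors vary. They rest on how much libraries vary within groups, in an estimate that all 6 groups share. VQ-D1 and t-VK12653 have 2 libraries each of bone marrow and spleen, VQ-D2 has 2 of spleen and 2 of lymph node, and VQ-D5 has 2 of bone marrow and 2 of lymph node. VQ-D4 has 1 library per site, namely lymph node, spleen, liver and bone marrow. Control is bone marrow alone, and no transplantation is named for it, so tumour, transplantation and part of the site cannot be told apart in comparisons with control. The labels give no ages.

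Interleukin-6 binds its receptor chain, encoded by Il6ra, and the pair then engages gp130, encoded by Il6st, which carries the signal for the whole cytokine family. The kinases JAK1, JAK2 and TYK2 sit on the inner tail of gp130 and phosphorylate STAT3, which enters the nucleus and raises transcription of its targets. STAT5B is used mainly by other cytokine receptors. SOCS1, SOCS3 and CISH are inhibitors whose genes STAT proteins induce, and PIM1 is a STAT-induced survival kinase. Interleukin-6 is a growth and survival factor of plasma cells and of myeloma, in which much of it comes from stromal and myeloid cells of the marrow.

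Total counts per library ran from 2685579 to 10047314. Levels are in CPM, reads scaled to a fixed library size after TMM scaling, a factor per library that balances its composition. Nras averaged 42.3 to 124 CPM over the VQ lines and 43.5 CPM in t-VK12653, against 32.3 CPM in control, and Myc averaged 592 to 3478 CPM over the VQ lines and 6542 CPM in t-VK12653, against 43.1 CPM in control. Sdc1, which encodes CD138, averaged 331 to 1030 CPM over the 5 lines, against 817 CPM in control. Markers of most other cell types were higher in the control libraries. The summed neutrophil list (16 of 17 genes measured) lay at 4.58 to 1236 CPM in the 20 tumour libraries and at 3339 to 9262 CPM in control. Further summed lists of blood cells were also lower in tumour than in control libraries, at 62.9 to 198 against 653 to 899 CPM for B cells, 2.04 to 59.2 against 81.1 to 123 CPM for T and NK cells, 17.4 to 169.8 against 417 to 1574 CPM for monocytes and macrophages, and 1.96 to 70.7 against 177 to 1039 CPM for red cells. The summed plasma cell list (11 genes measured) was lower in tumour libraries too, at 4805 to 15750 CPM, against 35053 to 65066 CPM in control. The summed liver, endothelial and stromal list went both ways. It lay at 122 to 374 CPM in VQ-D1, above every control library, at 787 CPM in the liver library of VQ-D4 and at 11.1 to 39.8 CPM in the other 15 tumour libraries, against 65.4 to 102 CPM in control. In bulk RNA, fewer cells of a type and less RNA per cell cannot be told apart. The part of these cells in the differences from control below was not tested.

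The promoter windows of Cish and Socs3 are shown because they were the only ones among the 10 genes to hold the letters TTCNNNGAA, the core of the element that STAT dimers bind. The sequences are from RefSeq on GRCm38.p6 and lie mostly before and partly after the RefSeq start of the gene, 5′ to 3′ on the gene's strand. Capitals mark each match.
Cish, chr9:107296409-107296708, plus strand: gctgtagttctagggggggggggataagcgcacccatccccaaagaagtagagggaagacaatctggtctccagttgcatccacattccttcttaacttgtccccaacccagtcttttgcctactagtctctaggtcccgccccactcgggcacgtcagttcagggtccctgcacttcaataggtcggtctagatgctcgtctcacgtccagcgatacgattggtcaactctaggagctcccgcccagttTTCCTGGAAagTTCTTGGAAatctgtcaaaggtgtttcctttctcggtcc
Socs3, chr11:117969317-117969616, minus strand: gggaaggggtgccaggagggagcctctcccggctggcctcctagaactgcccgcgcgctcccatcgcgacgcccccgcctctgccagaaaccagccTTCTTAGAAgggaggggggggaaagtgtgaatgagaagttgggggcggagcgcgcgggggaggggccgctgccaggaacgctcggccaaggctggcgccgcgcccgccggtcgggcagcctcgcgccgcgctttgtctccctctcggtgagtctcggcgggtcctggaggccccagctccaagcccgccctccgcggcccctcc
The motif reads the same on both strands. Cish held 2 matches, the first starting at the RefSeq start of the gene and the second just after it. Socs3 held 1 match that starts at position -154 from the RefSeq start. Both windows lie inside the genes as GENCODE places them (coordinates below), whose starts are further upstream. The stricter form TTCCNGGAA, which is contained in the first, occurred once, in Cish. Of 32851 promoter windows of the same length, 8.3% held the first motif and 1.15% the second. All 10 genes had a window in the table, Stat5b and Pim1 with 2 windows each. A match is a stretch of letters and not a measured binding site.

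Il6ra was called higher than control in 3 lines and lower in none, and Il6st was called higher in 3 lines and lower in 1. Il6ra, the ligand-binding chain, had 94.0, 82.9, 113 and 100.2 CPM in VQ-D1, 142, 81.4, 138 and 61.5 CPM in VQ-D2, and 105.3, 128, 142 and 127 CPM in t-VK12653, against 54.8, 58.0 and 47.0 CPM in control. Every library of these 3 lines lay above the highest control library. VQ-D4 had 39.7, 46.3, 57.4 and 47.7 CPM and VQ-D5 had 66.4, 53.7, 52.4 and 54.2 CPM, and both overlapped with control. Il6ra lies on chromosome 3, minus strand, from 89864059 to 89913196 (GRCm38), and an antisense gene, Gm42809, overlaps its exons. By edgeR's quasi-likelihood test with Benjamini-Hochberg adjustment, Il6ra rose in t-VK12653 (log2 fold change 1.22, SE 0.249, adjusted p = 0.000369), in VQ-D2 (1.03, SE 0.279, adjusted p = 0.00404) and in VQ-D1 (0.86, SE 0.244, adjusted p = 0.00532). These differences, and those of single lines below, are corrected for the site of sampling and refer to bone marrow. VQ-D2 has no bone marrow library, so its differences are inferred through site terms whose bone marrow level comes from other lines.

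Il6st encodes gp130, the signalling chain, and lies on chromosome 13, plus strand, from 112464070 to 112510086. It had 394, 442, 459 and 538 CPM in VQ-D1, 208, 231, 240.5 and 201.5 CPM in VQ-D2, 305, 334, 309 and 303 CPM in VQ-D4, and 132, 93.0, 143 and 96.2 CPM in VQ-D5. In t-VK12653 it had 463, 524, 462 and 837 CPM, against 221, 131 and 185 CPM in control. The libraries of VQ-D1, VQ-D4 and t-VK12653 all exceeded control, while VQ-D5 overlapped with it only through its highest libraries. Il6st rose in t-VK12653 (log2 fold change 1.52, SE 0.208, adjusted p = 5.08e-06), VQ-D1 (1.22, SE 0.204, adjusted p = 4.9e-05) and VQ-D4 (0.63, SE 0.218, adjusted p = 0.0199), and fell in VQ-D5 (-0.71, SE 0.208, adjusted p = 0.00583), all by edgeR. The VQ-D4 call was lost without VQ-D4 replicate 1 (adjusted p = 0.137) or control replicate 2 (adjusted p = 0.109), and the VQ-D5 call without control replicate 1 (adjusted p = 0.0569). In order of mean CPM, t-VK12653 and VQ-D1 did not differ past the threshold, nor did VQ-D2 and control, while VQ-D1 and VQ-D4, VQ-D4 and VQ-D2, and control and VQ-D5 did.

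**Figure D1:**
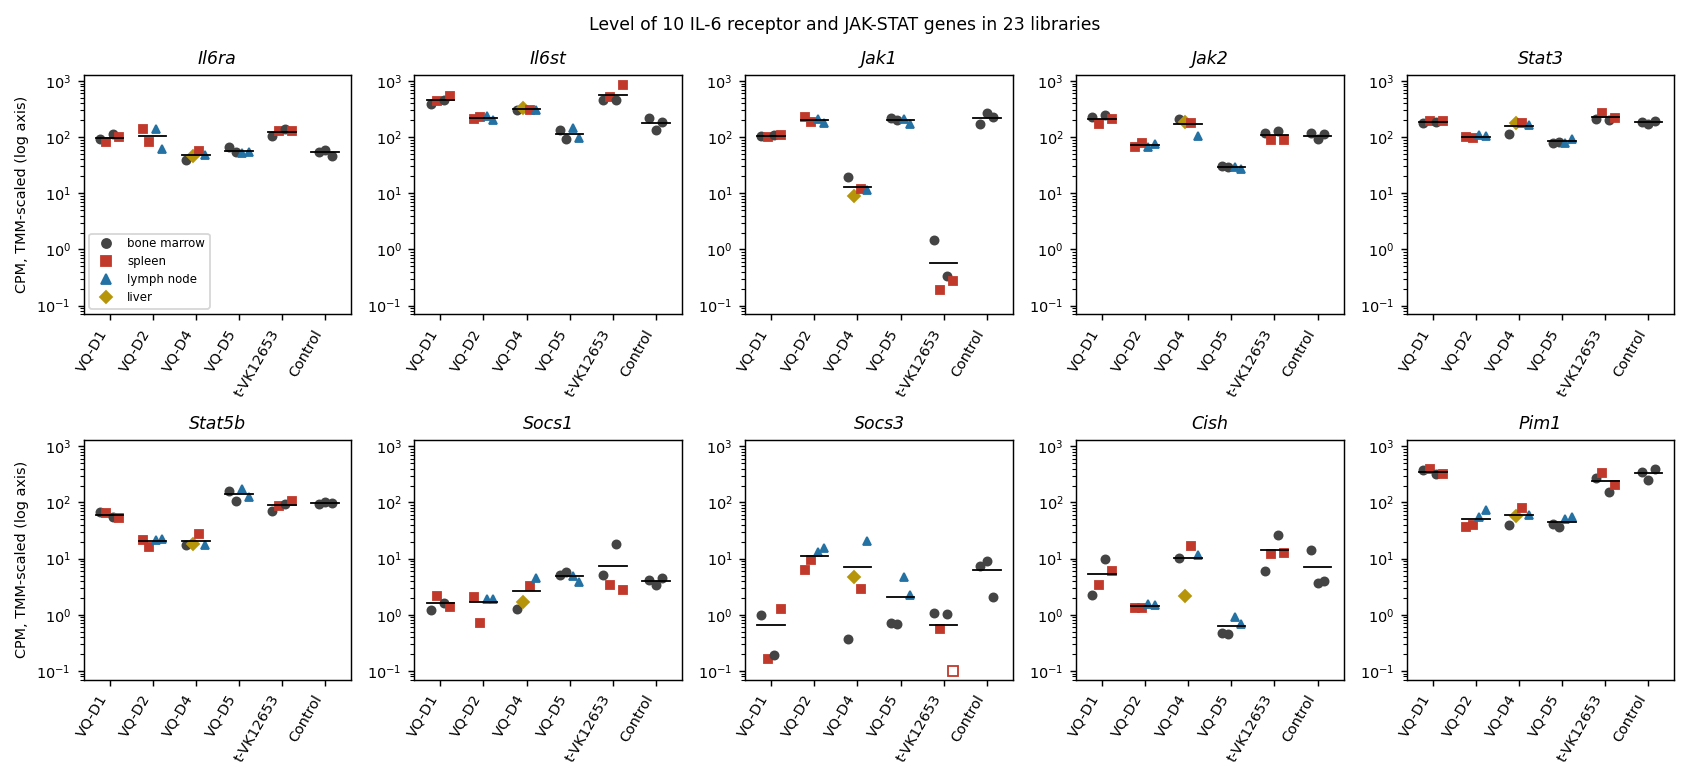
Each point is 1 library, with CPM on a log axis and groups along the x axis, and each horizontal line is a group mean. Colours and shapes give the site, and the open square stands for the Socs3 library with no read. Jak1 is at 0.577 CPM on average in t-VK12653 and at 13.1 CPM in VQ-D4, against 222 CPM in control, and Pim1 is near 50 CPM in VQ-D2, VQ-D4 and VQ-D5 but at 355 CPM in VQ-D1.

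Jak1, the main kinase of gp130, was nearly absent from the libraries of the MYC-only line. The 4 libraries of t-VK12653 held 7, 1, 1 and 1 reads, which is 1.5, 0.188, 0.339 and 0.274 CPM. VQ-D4 held 288 reads in all, at 19.6, 9.13, 12.0 and 11.5 CPM. VQ-D1 had 106, 100.3, 110.2 and 108 CPM, VQ-D2 231, 185, 211 and 175 CPM, and VQ-D5 219, 199, 212 and 174 CPM, against 169.9, 268 and 229 CPM in control. No library of t-VK12653, VQ-D4 or VQ-D1 reached the range of control, and the 3 lines did not overlap with each other, whereas VQ-D2 and VQ-D5 lay within it.

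The mean level of Jak1 was 386-fold lower in t-VK12653, 17.0-fold lower in VQ-D4 and 2.09-fold lower in VQ-D1 than in control. The edgeR log2 fold changes were -8.37 (SE 0.297, adjusted p = 8.29e-15), -3.76 (SE 0.219, adjusted p = 1.87e-11) and -0.97 (SE 0.18, adjusted p = 0.000107). The estimate for t-VK12653 rests on 10 reads and lay between -9.55 and -8.03 when single libraries were left out. Ranked by mean CPM, control, VQ-D5 and VQ-D2 did not differ past the threshold, and each further step down to VQ-D1, VQ-D4 and t-VK12653 did. The spread of the 6 group means on the log2 scale was an SD of 3.23 for Jak1, the 99.1 percentile of the 12867 genes tested. The other members ran from an SD of 0.55 for Stat3 to 1.46 for Socs3. Within t-VK12653 and VQ-D4 the spleen, liver and lymph node libraries had no more Jak1 than the bone marrow libraries.

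Jak1 lies on chromosome 4, minus strand, from 101152367 to 101265282 (GRCm38). Its neighbour Raver2 is an RNA-binding protein gene whose exons overlap the 3′ end of Jak1 on the other strand. Raver2 had 1 read in t-VK12653 and 32 reads in VQ-D4, means of 0.047 and 1.52 CPM, against 3.09 CPM in control. It averaged 1.07 CPM in VQ-D1, 0.804 CPM in VQ-D2 and 0.707 CPM in VQ-D5. Its mean was thus below control in every line, and VQ-D4, which is low in Jak1, had the highest of the lines. Lepr, the leptin receptor gene on the other side, had no read in t-VK12653, at least 16.8-fold lower than its 3.04 CPM in control at a floor of 3 counts over the group, while it was at 12.5 CPM in VQ-D4. Ak4, an adenylate kinase gene between Jak1 and Lepr, had no read in t-VK12653 either, against 0.49 CPM in control, and stood at 24.3 CPM in VQ-D5. Further genes of the same stretch kept reads in t-VK12653 but were also called lower than in control by edgeR. Dnajc6, between Ak4 and Leprot, had 27 reads and 1.53 CPM, against 5.94 CPM in control (log2 fold change -1.82, adjusted p = 0.0215). Leprot, which encodes an endosomal protein and shares its locus with Lepr, had 200 reads and 12.5 CPM, against 23 CPM in control (-0.85, adjusted p = 0.00788). Pde4b, a cyclic AMP phosphodiesterase gene, had 555 reads and 34.4 CPM, against 76.1 CPM in control (-1.25, adjusted p = 2.2e-05). How the DNA of this region differs between the lines was not measured.

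**Figure D2:**
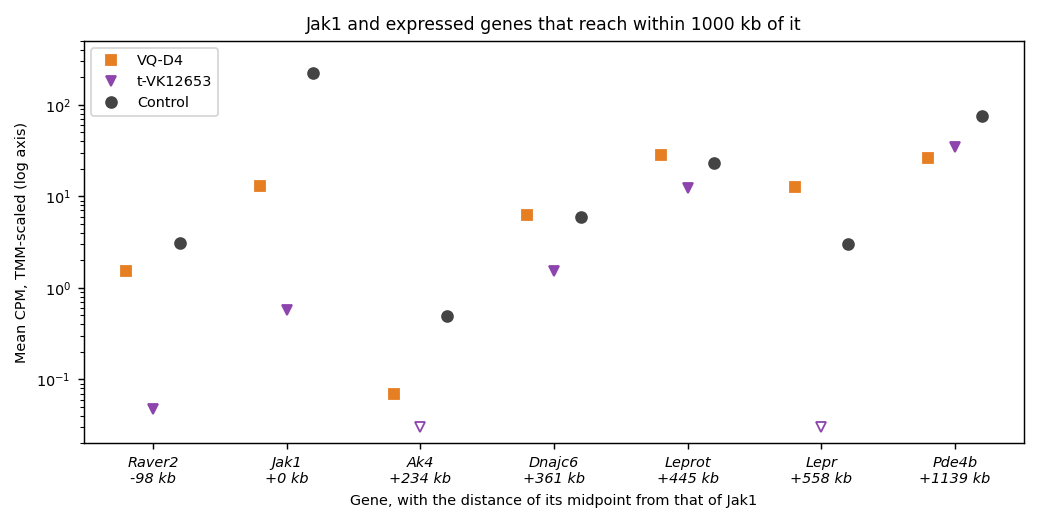
Mean CPM (log axis) of Jak1 and of genes that reach within 1000 kb of it and have a group mean of at least 1 CPM, in the order of the chromosome, with the distance of each midpoint from that of Jak1. Open triangles are genes without a read. In t-VK12653 Jak1, Raver2, Ak4 and Lepr are at or near 0, Dnajc6 is at 1.53 CPM, and Leprot and Pde4b are at 12.5 and 34.4 CPM.

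The genes whose log2 CPM followed Jak1 most closely over the 23 libraries were Sept6 (Pearson's r = 0.966), which encodes a septin, Pbrm1 (r = 0.964), a chromatin remodelling subunit, and H2afy (r = 0.964), which encodes the histone variant macroH2A. These are descriptive rankings among 8442 genes, and libraries of a line share a donor. Sept6 averaged 2.87 CPM in t-VK12653 and 15.9 CPM in VQ-D4, against 115 CPM in control.

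Jak2, the second kinase of the receptor complex, took a different course. Its levels were 230, 171, 243 and 208 CPM in VQ-D1, 65.9, 77.1, 66.1 and 76.6 CPM in VQ-D2, 211, 184, 178 and 107 CPM in VQ-D4, and 31.1, 29.6, 30.0 and 27.4 CPM in VQ-D5. In t-VK12653 they were 121, 89.5, 131 and 89.4 CPM, against 117, 91.7 and 111 CPM in control. VQ-D1 lay wholly above control and VQ-D2 and VQ-D5 wholly below it, while VQ-D4 overlapped with control through its lymph node library. Jak2 lies on chromosome 19, plus strand, from 29251828 to 29313080. It rose in VQ-D1 (log2 fold change 1.15, SE 0.148, edgeR adjusted p = 8.29e-07) and VQ-D4 (0.86, SE 0.158, adjusted p = 9.47e-05) and fell in VQ-D5 (-1.62, SE 0.162, adjusted p = 1.46e-08). VQ-D2 did not pass the threshold with a tissue term (-0.20, SE 0.17, adjusted p = 0.324) and passed without it (-0.58, adjusted p = 0.00556). Per transcript length, in mean TPM, VQ-D4 had 70.8 of Jak2 and 5.15 of Jak1, and t-VK12653 had 42.3 of Jak2 and 0.234 of Jak1. VQ-D5 had 13.4 of Jak2 and 87.0 of Jak1, and control had 51.1 of Jak2 and 102 of Jak1. TPM carry no TMM scaling and serve to compare the 2 genes within a group. In TMM-scaled CPM, Jak2 averaged 107.5 in t-VK12653 and 106.6 in control.

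Stat3, the main transcription factor downstream of gp130, had 78.3, 83.5, 79.9 and 92.9 CPM in VQ-D5 and 98.8, 94.7, 109.8 and 106 CPM in VQ-D2, against 183, 175 and 193 CPM in control. Both lines lay wholly below control. VQ-D1 had 179, 192, 184 and 193 CPM, within or at the edge of control. VQ-D4 had 113, 178, 180.0 and 163 CPM, and t-VK12653 had 214, 272, 202 and 217 CPM, the latter all above the control libraries. Stat3 lies on chromosome 11, minus strand, from 100885098 to 100939540 and its exons overlap those of Stat5a on the other strand. It fell in VQ-D5 (log2 fold change -1.26, SE 0.118, edgeR adjusted p = 5.41e-09), VQ-D2 (-1.07, SE 0.13, adjusted p = 4.32e-07) and VQ-D4 (-0.45, SE 0.126, adjusted p = 0.00464). The VQ-D4 call rests on its bone marrow library, and without that library, VQ-D4 replicate 1, the log2 fold change was -0.24 (adjusted p = 0.143). It was also lost without the tissue term (-0.22, adjusted p = 0.138) and with counts summed per recipient (-0.17, adjusted p = 0.278). In t-VK12653 the difference from control was 0.19 (SE 0.113, adjusted p = 0.158), which did not pass. It passed without the tissue term (0.30, adjusted p = 0.0441) and with counts summed per recipient (0.36, adjusted p = 0.0309).

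Stat5b ranged more widely over the groups than Stat3. VQ-D2 had 21.5, 16.1, 21.3 and 22.2 CPM and VQ-D4 had 17.6, 18.0, 27.6 and 17.6 CPM, against 93.1, 100.6 and 97.2 CPM in control. VQ-D1 had 68.1, 65.4, 55.6 and 51.8 CPM, VQ-D5 159, 105, 174 and 127 CPM, and t-VK12653 71.2, 85.6, 92.9 and 105 CPM. VQ-D1, VQ-D2 and VQ-D4 lay wholly below control, VQ-D5 wholly above it, and t-VK12653 across it. Stat5b lies on chromosome 11, minus strand, from 100780731 to 100850724. It fell in VQ-D2 (log2 fold change -2.41, SE 0.215, edgeR adjusted p = 6.71e-09), VQ-D4 (-2.33, SE 0.216, adjusted p = 1.35e-08) and VQ-D1 (-0.76, SE 0.18, adjusted p = 0.0011). The rise in VQ-D5 (0.45, SE 0.185, adjusted p = 0.0376) was at the edge of the threshold. It was lost under 10 of the 23 fits without 1 library, all 3 without a control library among them, with adjusted p up to 0.339 without VQ-D5 replicate 1, and under 6 other settings, among them DESeq2 (adjusted p = 0.12) and bone marrow alone (adjusted p = 0.057).

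**Figure D3:**
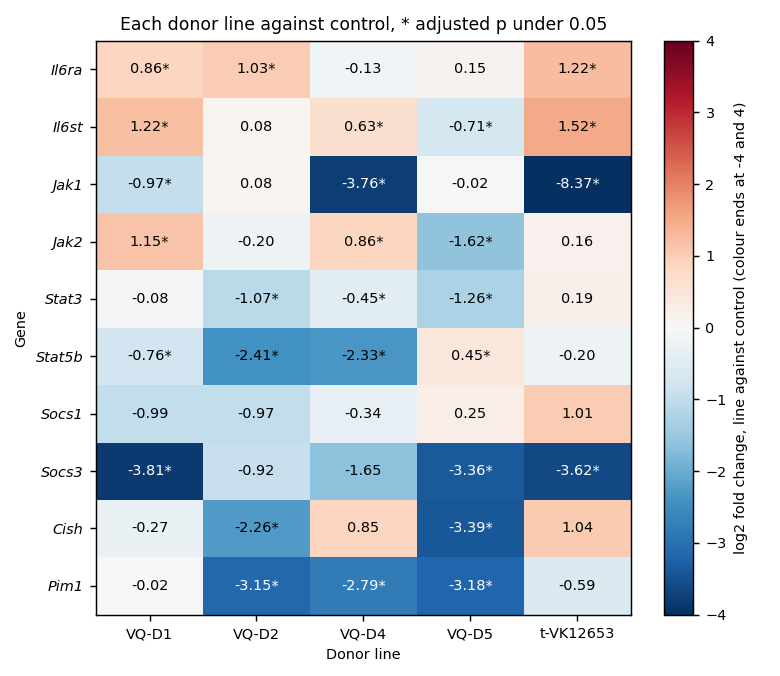
Log2 fold changes of the 10 genes in each donor line against control, from the fit of all 23 libraries, with an asterisk at an adjusted p under 0.05. The colour scale ends at -4 and 4. Jak1 is lowest in t-VK12653 at -8.37, and Pim1 is near -3 in VQ-D2, VQ-D4 and VQ-D5 but at -0.02 in VQ-D1.

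Pim1, the survival kinase gene, separated the lines into high and low. It had 36.7, 39.4, 56.0 and 72.1 CPM in VQ-D2, 39.3, 57.0, 79.2 and 58.8 CPM in VQ-D4, and 41.0, 36.5, 50.2 and 54.0 CPM in VQ-D5, against 355, 247 and 391 CPM in control. VQ-D1 had 372, 399.7, 321 and 327 CPM and t-VK12653 had 269, 334, 156 and 206 CPM. The highest library of the 3 low lines, at 79.2 CPM, lay below the lowest of all the others, at 156 CPM. Pim1 lies on chromosome 17, plus strand, from 29490753 to 29496112, and an antisense gene, Gm26885, overlaps its exons. It fell in VQ-D5 (log2 fold change -3.18, SE 0.271, edgeR adjusted p = 1.7e-08), VQ-D2 (-3.15, SE 0.294, adjusted p = 9.21e-08) and VQ-D4 (-2.79, SE 0.291, adjusted p = 3.96e-07), with VQ-D1 at -0.02 (SE 0.242, adjusted p = 0.944). In t-VK12653 the difference was -0.59 (SE 0.246, adjusted p = 0.0511), just short of the threshold. It passed in 13 of the 23 fits without 1 library, and with DESeq2 (adjusted p = 0.0219), voom with a recipient block (adjusted p = 0.0285), RLE scaling (adjusted p = 0.0355), no filter (adjusted p = 0.00026) and without abundant non-coding RNA (adjusted p = 0.0405). Among genes most like Pim1 over the 23 libraries was its paralogue Pim2 (r = 0.938), at 10.9 CPM in VQ-D2, 5.40 CPM in VQ-D4, 6.60 CPM in VQ-D5, 101 CPM in VQ-D1 and 34.3 CPM in t-VK12653, against 44.9 CPM in control. Atp6v1e1 and Tnip1 had r = 0.944 each.

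The inhibitor genes were measured with few reads, so their values carry more counting error. Cish, whose product blocks STAT5 docking at receptors, had 2, 2, 7 and 6 reads in VQ-D5, which is 0.479, 0.459, 0.917 and 0.699 CPM. VQ-D2 had 1.34, 1.30, 1.55 and 1.51 CPM, against 13.9, 3.75 and 3.94 CPM in control. VQ-D1 had 2.22, 3.46, 9.95 and 5.99 CPM, VQ-D4 10.1, 2.17, 16.5 and 11.5 CPM, and t-VK12653 6.02, 12.0, 26.8 and 12.3 CPM. VQ-D5 and VQ-D2 lay wholly below control and the other 3 lines overlapped with it. Cish lies on chromosome 9, plus strand, from 107296026 to 107302784, where the exons of Gm17040 and Gm17041 overlap it on the other strand. It fell in VQ-D5 (log2 fold change -3.39, SE 0.733, edgeR adjusted p = 0.000411) and VQ-D2 (-2.26, SE 0.715, adjusted p = 0.0102). Control replicate 1 holds much of the control level, and without it the VQ-D2 difference was -1.33 (adjusted p = 0.127). Without the same library Cish was also called higher in VQ-D4 (1.77, adjusted p = 0.024) and in t-VK12653 (1.93, adjusted p = 0.0091), where it was not called with all libraries (0.85, adjusted p = 0.242, and 1.04, adjusted p = 0.11). Sik1 (r = 0.898), Capns1 (r = 0.891) and Zfand6 (r = 0.882) were most like Cish over the libraries.

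Socs3, the inhibitor that binds gp130 itself, had 4, 1, 2 and 9 reads in VQ-D1 and 5, 3, 3 and 0 reads in t-VK12653, which is at most 1.25 CPM in either line, against 7.46, 9.21 and 2.10 CPM in control. Every library of both lines lay below the lowest control library. VQ-D2 had 6.27, 9.42, 13.2 and 15.7 CPM, VQ-D4 0.378, 4.64, 2.92 and 20.8 CPM, and VQ-D5 0.719, 0.689, 4.72 and 2.21 CPM, all overlapping with control. Socs3 lies on chromosome 11, minus strand, from 117966079 to 117970047. It fell in VQ-D1 (log2 fold change -3.81, SE 0.864, edgeR adjusted p = 0.000808), t-VK12653 (-3.62, SE 0.89, adjusted p = 0.00165) and VQ-D5 (-3.36, SE 0.854, adjusted p = 0.00186). The VQ-D5 call depends on the tissue term, since 2 of its 4 libraries are lymph node. Without the term it was -1.44 (adjusted p = 0.151). VQ-D4 was at -1.65 with the term (adjusted p = 0.122) and 0.13 without it (adjusted p = 0.906). It was called lower without VQ-D4 replicate 4, its lymph node library (-2.65, adjusted p = 0.019), in bone marrow alone (-3.94, adjusted p = 0.0252) and without the filter on low counts (-1.59, adjusted p = 0.0176). Klhl2 (r = 0.823), Pnpla6 (r = 0.792) and Erlin2 (r = 0.78) were most like Socs3.

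In each line with lymph node samples, every lymph node library had more Socs3 than every other library of the line. They held 13.2 and 15.7 CPM against 6.27 and 9.42 CPM in spleen for VQ-D2, 20.8 CPM against 0.378 CPM in bone marrow, 4.64 CPM in liver and 2.92 CPM in spleen for VQ-D4, and 4.72 and 2.21 CPM against 0.719 and 0.689 CPM in bone marrow for VQ-D5. The lymph node term of the fit was 2.61 on the log2 scale (SE 0.709, unadjusted p = 0.00147), with an edgeR adjusted p of 0.376 over 12867 genes, so it did not pass. In the fit without a filter on low counts it passed (2.66, adjusted p = 2.31e-06). With single libraries left out it never passed (edgeR adjusted p from 0.249 to 0.779). DESeq2, voom with a recipient block and RLE scaling called 0 members between these sites. The summed neutrophil markers in VQ-D5 were lower in lymph node, at 4.58 and 5.25 CPM, than in bone marrow, at 84.6 and 143 CPM. The lymph node library of VQ-D4 had the highest T and NK cell sum of its line, at 19.2 CPM (others 5.19 to 15.3 CPM). Its monocyte and macrophage sum was also the highest, at 101 CPM (others 57.1 to 89.9 CPM). In VQ-D2 both sums overlapped between sites, and in VQ-D5 neither was higher in lymph node. The part of these cells in Socs3 was not tested. Of the 10 members, 0 were called between lymph node and bone marrow at the usual filter, where 0.0155% of all genes were (0.00777% higher, 0.00777% lower). An unadjusted p under 0.05 was found for 4 members and for 6.89% of all genes. Without the filter 2 members were called, Socs3 and Pim1 (0.62, adjusted p = 1e-04), as were 264 of 21680 genes. By edgeR's quasi-likelihood test between spleen and bone marrow, 0 members were called, as were 0% of genes. DESeq2 called 0 members too. Jak2 (-0.33, adjusted p = 0.461) and Stat3 (0.21, adjusted p = 0.636) were the 2 with an unadjusted p under 0.05 by edgeR, as 6.44% of all genes had.

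**Figure D4:**
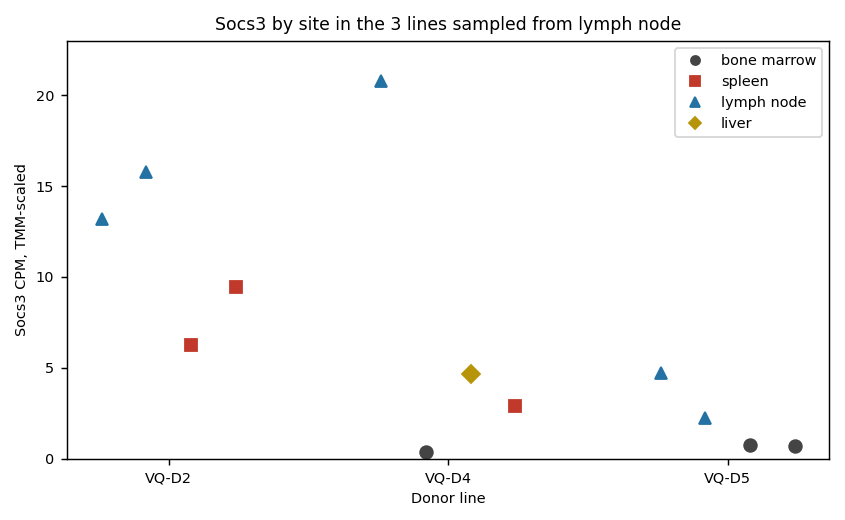
Socs3 CPM of single libraries in the 3 lines with lymph node samples, with lymph node libraries to the left within each line. They lie at 2.21 to 20.8 CPM, each above the other libraries of its line.

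Socs1, which inhibits JAK kinases directly, had at most 54 reads in a library. It stood at 1.23, 2.14, 1.64 and 1.39 CPM in VQ-D1, 2.09, 0.724, 1.94 and 1.94 CPM in VQ-D2, 1.26, 1.70, 3.24 and 4.48 CPM in VQ-D4, 5.03, 5.74, 4.85 and 3.85 CPM in VQ-D5, and 5.16, 3.39, 18.3 and 2.74 CPM in t-VK12653, against 4.22, 3.41 and 4.47 CPM in control. Every library of VQ-D1 and VQ-D2 lay below control, but no line passed the edgeR threshold, with log2 fold changes of -0.99 in VQ-D1 (SE 0.609, adjusted p = 0.17) and -0.97 in VQ-D2 (SE 0.679, adjusted p = 0.229). Both passed when t-VK12653 replicate 3, the library at 18.3 CPM, was left out (adjusted p = 0.0361 and 0.0491), and with counts summed per recipient (adjusted p = 0.041 and 0.038). VQ-D1 passed without the tissue term as well (adjusted p = 0.0478). In t-VK12653 the difference was 1.01 (adjusted p = 0.124), was called in bone marrow alone (1.51, adjusted p = 0.0341) and was -0.0372 without replicate 3 of that line. Socs1 lies on chromosome 16, minus strand, from 10782240 to 10785536.

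Counted over the 10 genes, the lines differed from control about as often as genes did in general. In VQ-D1, 6 were called, against 59.4% of all genes tested, with 3 higher and 3 lower, where 29.7% and 29.7% of all genes were. In VQ-D2, 5 were called, against 57.5%, with 1 higher (29.6% of all genes) and 4 lower (27.8%). In VQ-D4, 6 were called, against 54.3%, with 2 higher (27.5%) and 4 lower (26.9%). In VQ-D5, 7 were called, against 63.8%, with 1 higher (31.2%) and 6 lower (32.5%). In t-VK12653, 4 were called, against 56.9%, with 2 higher (28.8%) and 2 lower (28.1%). The median log2 fold change of the 10 was -0.18 for line VQ-D1, -0.95 for VQ-D2, -0.39 for VQ-D4, -0.99 for VQ-D5 and 0.17 for t-VK12653, against -0.04 to 0.02 over all genes tested. These comparisons share the 3 control libraries.

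Over donors, the VQ genotype showed no difference from control that passed. With the counts of each line summed, 4 donors stood against 3 control libraries. Of the 10 genes, 0 were called by edgeR and 0 by DESeq2, against 23% of all genes by edgeR (13.7% higher, 9.27% lower). An unadjusted p under 0.05 was found for 0 of the 10 and for 38.3% of all genes by edgeR. Pim1 had the largest difference, at 368 CPM in the sum of VQ-D1, 53.6 CPM for VQ-D2, 56.1 CPM for VQ-D4 and 50.9 CPM for VQ-D5, against 339, 243 and 377 CPM in control (log2 fold change -1.27, SE 0.76, adjusted p = 0.26). Without VQ-D1 it was called, at -2.60 (adjusted p = 0.00289). In the 23-library fit, which takes libraries as replicates, the mean of the 4 line terms was called against control for 6 members, all lower. They were Jak1 (-1.17), Stat3 (-0.71), Stat5b (-1.26), Socs3 (-2.43), Cish (-1.27) and Pim1 (-2.29). That fit called 7786 of 12867 genes, so 6 of the 10 is near the share called in either direction. The directions differed, since 47.4% of the called genes were higher and all 6 members were lower. In bone marrow alone 1 was called, Socs3 (-3.57, adjusted p = 0.0246), as were 2027 of 11954 genes. That fit leaves out VQ-D2, which has no bone marrow library and had the most Socs3 of the line sums, at 11.6 CPM. Over all genes, the median log2 fold change of the line sums against control was 0.19. With another scaling (RLE) it was 0.07, and 50.6% of called genes were higher instead of 59.7%.

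Between the 4 VQ lines 9 of the 10 genes differed, against 80.6% of all genes. The exception was Socs1 (adjusted p = 0.115 by edgeR), which was called without the filter on low counts (adjusted p = 0.0402), without the tissue term (adjusted p = 0.0138), with counts summed per recipient (adjusted p = 0.0221), in bone marrow alone (adjusted p = 0.0369), without t-VK12653 replicate 3 (adjusted p = 0.0133) and without VQ-D4 replicate 1 (adjusted p = 0.0479). The widest gap between the highest and the lowest line was 4.24 on the log2 scale for Cish (adjusted p = 1.04e-05), followed by 3.84 for Jak1 (adjusted p = 5.05e-12), 3.16 for Pim1 (adjusted p = 4.78e-09), 2.90 for Socs3 (adjusted p = 0.00306), 2.87 for Stat5b (adjusted p = 7.8e-12) and 2.78 for Jak2 (adjusted p = 2.7e-12). Il6st (1.93), Stat3 (1.18) and Il6ra (1.16) had narrower gaps. In bone marrow alone, without VQ-D2, Socs3 and Cish were not called (adjusted p = 0.834 and 0.0654). Single pairs of lines, t-VK12653 included, differed in 9 of 10 pairs for Il6st, Jak1, Jak2, Stat3 and Stat5b, 7 for Cish and Pim1, 6 for Il6ra, 5 for Socs3 and 2 for Socs1, counted over all 10 pairs. Of all genes, 51.3% were called between VQ-D1 and VQ-D2, 41.2% between VQ-D1 and VQ-D4, 58.5% between VQ-D1 and VQ-D5, 57% between VQ-D2 and VQ-D4, 38.6% between VQ-D2 and VQ-D5 and 58.7% between VQ-D4 and VQ-D5. Against t-VK12653 these shares were 51.9% for VQ-D1, 63.2% for VQ-D2, 49.8% for VQ-D4 and 64.5% for VQ-D5.

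Against the MYC-only line, the mean of the VQ lines was called for 8 of the 10 genes, 1 higher and 7 lower, against 61.2% of all genes (29.6% higher, 31.6% lower). Jak1 was higher in VQ (log2 fold change 7.21, SE 0.276, edgeR adjusted p = 1.08e-14). The lower genes were Cish (-2.30, SE 0.404), Pim1 (-1.70, SE 0.177), Socs1 (-1.52, SE 0.406), Il6st (-1.22, SE 0.141), Stat5b (-1.06, SE 0.132), Stat3 (-0.90, SE 0.081) and Il6ra (-0.75, SE 0.17), with adjusted p between 2.57e-09 for Stat3 and 0.00262 for Socs1. Jak2 (-0.11, adjusted p = 0.393) and Socs3 (1.19, adjusted p = 0.206) did not pass. Socs3 was called higher in VQ with counts summed per recipient (2.17, adjusted p = 0.00804), without the tissue term (2.23, adjusted p = 0.042) and without the filter (1.24, adjusted p = 0.0428). In bone marrow alone, where VQ-D2 drops out, Socs3 was at -1.02. The Socs1 call rests on t-VK12653 replicate 3, and without it the difference was -0.70 (adjusted p = 0.117). Single lines did not all follow the mean. By edgeR, Pim1 was higher in VQ-D1 than in t-VK12653 (0.56, adjusted p = 0.0336), and Stat5b was higher in VQ-D5 (0.66, adjusted p = 0.00241). Not called were Il6ra in VQ-D1 and VQ-D2, Il6st in VQ-D1, Cish in VQ-D4, and Socs1 in VQ-D4 and VQ-D5. Jak2 was called higher in VQ-D1 and VQ-D4 and lower in VQ-D2 and VQ-D5. The comparison of the mean sets 4 donors against 1, so genotype and donor cannot be told apart.

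The remaining JAK and STAT genes form a list of 7. The test of VQ against control called 1 of them, against 23% of all genes, namely Stat6, the interleukin-4 pathway factor, lower (log2 fold change -0.91, SE 0.235, edgeR adjusted p = 0.0307), at a mean of 42.5 CPM against 88.3 CPM in control. VQ against t-VK12653 called 4 of 7, near the 61.2% of all genes called there: Stat5a (-1.63, SE 0.137), Stat4 (-1.57, SE 0.37) and Tyk2 (-1.07, SE 0.106) were lower and Stat2 (0.41, SE 0.17) higher. Tyk2, the third kinase of gp130, averaged 36.8 CPM in VQ-D2, 61.2 CPM in VQ-D4 and 22.1 CPM in VQ-D5, against 118 CPM in control, and was called lower in these 3 lines. It averaged 134 CPM in VQ-D1 and 106 CPM in t-VK12653, where it was not called. Jak3, a kinase of lymphocyte cytokine receptors, was not called in either of the 2 VQ comparisons.

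**Figure D5:**
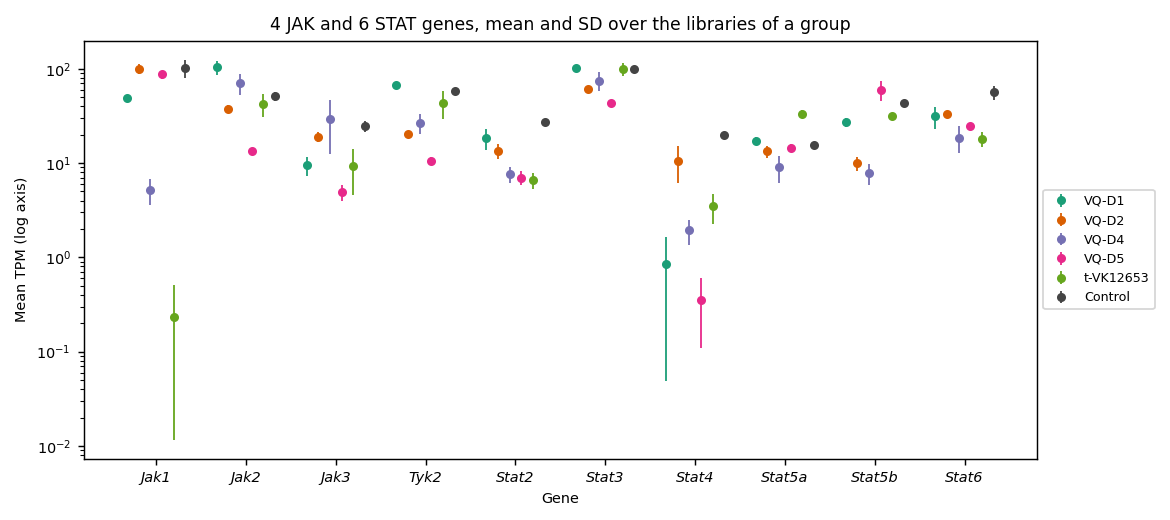
Mean TPM (log axis, scaled to transcript length by the authors) of 4 JAK and 6 STAT genes, with bars of 1 SD over 4 libraries of a line and 3 of control. Where the SD is close to or above the mean the lower bar is cut above 0. Jak1 is the lowest of these 10 genes in t-VK12653, at 0.234 TPM.

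Other gp130 receptors and ligands were mostly low. Of the 9 gp130 cytokine genes, 7 passed the filter in the donor sums and 2 were called against control, both lower, where 23% of all genes were called and 9.27% were lower. Osm, encoding oncostatin M, averaged 2.44 CPM in VQ against 21.4 CPM in control (log2 fold change -3.11, SE 0.70, edgeR adjusted p = 0.0197), and Ebi3, a subunit of interleukin-27 and interleukin-35, 1.38 against 16.4 CPM (-3.49, SE 0.824, adjusted p = 0.0234). Control libraries ran from 9.46 to 44.0 CPM for Osm, with a median of 10.7 CPM, so the highest library holds much of that mean. Il6 itself was near 0 in every group, at 7 reads for VQ-D1, 2 reads for VQ-D2, 1 read for VQ-D4 and none for VQ-D5 or t-VK12653, against 3 reads for control. Of 5 further gp130 cytokine receptor genes, 4 were tested in the donor sums and 1 was called against control, Il27ra, at 0.14 CPM in VQ against 6.12 CPM in control (-5.03, SE 0.981, adjusted p = 0.0127). Lifr, the leukaemia inhibitory factor receptor, averaged 194 ± 36.7 CPM in VQ-D2 and 254 ± 55.3 CPM in VQ-D5 (SD, n = 4 each), 1.06 CPM in VQ-D1 and 1.72 CPM in VQ-D4, and had no read in t-VK12653, against 7.52 CPM in control. It was called higher than control in VQ-D2 and VQ-D5, and was at least 41.6-fold lower in t-VK12653 than in control at the floor of 3 counts over the group. Il11ra1, the interleukin-11 receptor, averaged 4.5 CPM in VQ and 17.4 CPM in t-VK12653 (VQ against t-VK12653 -2.41, SE 0.272, adjusted p = 9.48e-08).

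Of 25 other cytokine receptor genes that signal through JAK kinases, 23 were tested in the donor sums and 11 were called against control, all lower, where 9.27% of all genes were lower. The largest called differences from control were in Il7r, the interleukin-7 receptor, with 13 reads over the 16 VQ libraries and 17.5 CPM in control, Il9r, the interleukin-9 receptor, with 9 reads against 11.0 CPM, and Il2rb, a chain of the interleukin-2 receptor, with 32 reads against 27.5 CPM. B cell and T and NK cell markers moved with these genes (values above), and their part was not tested. Of 17 other inhibitors, 2 were lower in VQ than in control, near the 9.27% of all genes, Ptpn6, encoding the phosphatase SHP-1 (53.2 against 334 CPM, -2.5, SE 0.61, adjusted p = 0.0262), and Ptpn1 (58.9 against 108 CPM, -0.76, SE 0.189, adjusted p = 0.0275). Socs2 averaged 193 CPM in VQ-D2 and 89.5 CPM in VQ-D5 but 0.59 CPM in VQ-D1, 0.93 CPM in VQ-D4 and 1.05 CPM in t-VK12653, against 22 CPM in control, and all 5 differences were called, higher in VQ-D2 and VQ-D5 and lower in the others. Ptprc, the phosphatase CD45 whose B220 form was gated out, averaged 3.54 CPM in VQ-D4 and 2.62 CPM in VQ-D5 and 155 to 204 CPM in the other lines, against 472 CPM in control.

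Of 20 other STAT target genes, 4 were called in VQ against control, near the 23% of all genes. The median log2 fold change in VQ against control was -1.52 for the gp130 cytokines, -0.12 for their receptors, -1.86 for the other cytokine receptors, -0.76 for the JAK and STAT list, -0.42 for the inhibitors and -0.43 for these targets, against 0.19 over all genes. Bcl6, a repressor of the germinal centre, averaged 0.991 CPM in VQ against 13.1 CPM in control (-3.79, SE 0.966, edgeR adjusted p = 0.0297). The early response genes Fos (308 against 1666 CPM, -2.66, SE 0.641, adjusted p = 0.025) and Junb (-1.96, adjusted p = 0.0312) were lower too, and Pim3 was higher (log2 fold change 0.997, adjusted p = 0.0359). Fgl2 averaged 64.4 CPM in VQ-D2, at most 0.908 CPM in the other lines, and 108 CPM in control. Bcl3, an NF-kB partner, averaged 6.37 CPM in VQ and 16.7 CPM in t-VK12653 (-2.43, SE 0.312, adjusted p = 7.75e-07).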

How the data were processed

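Per the labels' protocols, RNA was purified on RNeasy Micro columns and sequenced from SMARTer stranded total RNA libraries for picogram inputs. The submitters' processing notes name STAR, featureCounts, DESeq2, GRCm38 and mm10 without versions. The sources used here do not give the strand setting of the counting, so reads of overlapping genes on opposite strands may not be separated. Each table gives a count, an FPKM and a TPM per gene symbol, per the file headers. The deposited counts are whole numbers with no normalization by the authors. The FPKM values by the authors were not used. The TPM values, scaled by the authors to length and without TMM scaling, are shown to compare levels between genes. Their differences between groups were not tested.

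In R 4.3.3, edgeR 4.0.16 was run on the counts with TMM scaling, filterByExpr by group (count minimum 10, total minimum 15), robust quasi-likelihood tests and Benjamini-Hochberg adjustment at 0.05. One fit of 23 libraries had terms for group and tissue (12867 genes tested), while VQ against control used line totals, 4 against 3 control libraries, with no tissue term (13870 genes). The first run filtered by the design matrix, which the 1 liver library sets, and the filter was changed to one by group after its results were seen. CPM values divide counts by the TMM-scaled size of the library over tested genes. Alternatives used DESeq2 1.42.0 and limma 3.58.1. For a group without a read, at-least folds use 3 counts over the group as the floor, and such limits cover counting error only, since the reads carry no stated molecular identifiers. Coordinates are from GENCODE on GRCm38, and promoters from RefSeq on GRCm38.p6. Likeness was Pearson's r of log2 CPM (prior count 2) over 23 libraries, among genes of at least 10 CPM on average, for the 4 members with the widest spread of group means.

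The members and lists were chosen with earlier results of these data known. From each list of other pathway genes, the text names up to 4 with the largest called difference in VQ against control or t-VK12653, and further JAK and STAT genes, of which 1 is not reported here. Il6, Junb and Pim3 were named after their values were seen, as were the neighbours of Jak1. Recipient numbers appear only in table names and entered alternatives alone. Beyond group and tissue, libraries of 1 recipient correlated at 0.205 in the voom fit. Replicate numbers did not pair the libraries: deviations of same-numbered libraries correlated at a median of -0.0216 over 55 pairs. All pairs of libraries within a group differed by more than sampling noise.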

Additional observations from a re-analysis of the deposited data

Results flagged for a closer look

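Of 50 groups of 4 libraries (10 genes in 5 lines), 7 held a library far from the other 3 by Dixon's test, a distance that chance gives in about 5% of groups. These libraries were VQ-D5 replicate 1 for Il6ra (bone marrow, 66.4 CPM, others 52.4 to 54.2 CPM), t-VK12653 replicate 4 for Il6st (spleen, 837 CPM, others 462 to 524 CPM), t-VK12653 replicate 1 for Jak1 (bone marrow, 1.5 CPM, others 0.188 to 0.339 CPM), VQ-D2 replicate 2 for Stat5b (spleen, 16.1 CPM, others 21.3 to 22.2 CPM) and for Socs1 (0.724 CPM, others 1.94 to 2.09 CPM), VQ-D4 replicate 3 for Stat5b (spleen, 27.6 CPM, others 17.6 to 18.0 CPM) and t-VK12653 replicate 3 for Socs1 (bone marrow, 18.3 CPM, others 2.74 to 5.16 CPM). VQ-D2 replicate 2 and the libraries of t-VK12653 recur among them. The neutrophil marker sum of t-VK12653 replicate 1, the library with 7 of the 10 Jak1 reads of its line, was 161 CPM, the highest of that line, beside 8.28 to 93.6 CPM in its other libraries, and its part in those reads was not tested.

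The effect against control differed between the VQ lines for 9 genes by the test between lines. The gap between the highest and the lowest line, on the log2 scale, was 4.24 for Cish, 3.84 for Jak1, 3.16 for Pim1, 2.90 for Socs3, 2.87 for Stat5b, 2.78 for Jak2, 1.93 for Il6st, 1.18 for Stat3 and 1.16 for Il6ra.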

How the results depend on the processing

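No called difference of the 10 genes changed sign under any alternative run. A call was lost in 29 single refits, 16 with 1 library left out and 13 with another setting, and 16 of the 29 concern the rise of Stat5b in VQ-D5. The count of members called moved by over 1.5 times for VQ against control and for lymph node against bone marrow. In VQ against control, 0 became 1 in bone marrow alone (Socs3), where VQ-D2 drops out. It became 6 with the mean of the 4 line terms and 1 without line VQ-D1 (Pim1). In lymph node against bone marrow, 0 became 2 without a filter (Socs3, Pim1). With single libraries left out, the counts ran from 6 to 7 in VQ-D1, 4 to 6 in VQ-D2, 4 to 7 in VQ-D4, 5 to 7 in VQ-D5, 4 to 6 in t-VK12653, 7 to 8 for VQ against t-VK12653 and 9 to 10 between the VQ lines, and stayed at 0 for the other comparisons.

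Differences not called with all libraries and the usual settings that changed sign were these. Socs3 in VQ against control was 0.0898 without line VQ-D1 and ran from -0.66 to 0.0851 with single libraries left out. Cish in VQ against control ran from -0.97 to 0.29, the top without Control replicate 1. Socs1 in t-VK12653 against control ran from -0.0372, without t-VK12653 replicate 3, to 1.24 with single libraries left out, and was 1.51 and called in bone marrow alone. Socs3 in VQ-D4 against control was 0.13 without the tissue term. In VQ against t-VK12653 Socs3 was -1.02 in bone marrow alone, where VQ-D2 drops out. The cause was not tested. Of 100 member results, 36 were called nowhere, and 15 of these also changed sign somewhere and are not listed. Socs3 between the VQ lines was not called by voom with recipient as a random block (adjusted p = 0.0522).

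Libraries with the same replicate number did not deviate together (median r -0.0216 over 55 pairs), and a replicate block left the counts at 6 for VQ-D1, 5 for VQ-D2, 6 for VQ-D4, 7 for VQ-D5, 4 for t-VK12653, 8 for VQ against t-VK12653, 9 between the VQ lines and 0 between sites. A filter by the design matrix, used at first and replaced by the one by group after its results were seen, took the call from Stat5b in VQ-D5 (adjusted p = 0.0543) and gave one to Pim1 in t-VK12653 (adjusted p = 0.0473). Socs1, Socs3 and Cish had at most 103 reads in any library, which limits their precision.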
